A study of Homo sapiens with 22 samples.

Results

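The genes described here are the 77 protein-coding genes of the human cytosolic ribosome that carry an RPL, RPLP or RPS symbol, among 20015 protein-coding genes of GENCODE release 44 on chromosomes 1 to 22, X and Y. They were chosen by symbol alone (RPL or RPS followed by digits, with an optional A or X, and RPLP0, RPLP1, RPLP2 and RPSA), so pseudogenes, paralogues with an L suffix and the RPS6K kinases were not included, and the rule uses no measured value, although it was set with earlier results of these data known. Of the 77, 43 encode proteins of the large subunit, 3 encode the acidic stalk (RPLP0, RPLP1 and RPLP2) and 31 encode proteins of the small subunit. They lie on 21 chromosomes, with at most 12 on any one. The window of 24 of them also holds a transcription start site (TSS) of another protein-coding gene.

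The ribosome builds all cellular proteins, and each of its proteins is needed in about equal amount, from genes that are scattered over the genome. Transcription of these genes typically starts at a C inside a run of pyrimidines, the 5′ terminal oligopyrimidine (TOP) tract, through which translation of their mRNAs follows growth signals. Their promoters are strong and active in every dividing cell, and many of their introns carry small nucleolar RNAs that guide the modification of ribosomal RNA. ETS1 is a transcription factor of the ETS family, whose members bind DNA around a GGAA core, most tightly when it is preceded by CC. H3K4me3, trimethylation of histone H3 at lysine K4, marks active start sites, and H3K27ac, acetylation at lysine K27, marks active promoters and enhancers.

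The study asked how the fusion oncoprotein EWSR1::FLI1 regulates ETS1 in TC-32, an established line of Ewing sarcoma, a tumour of bone and soft tissue of the young that this fusion drives. Cells of both arms were reverse transfected with 20 nM siRNA, either the control siNEG or siFLI1, used to deplete the fusion, and were crosslinked with 1% formaldehyde. Chromatin immunoprecipitation (ChIP) followed by sequencing gave 14 peak lists among 22 samples, the other 8 being inputs that were not analysed here. Each arm had 2 lists for ETS1, 2 for H3K4me3 and 2 for H3K27ac, plus 1 list from a further H3K27ac antibody, ab4729. TC-32 is a single line, the cells still hold whatever fusion protein the siRNA left, and the lists hold no measure of that depletion. The labels do not say whether replicates came from separate cultures, so p-values measure the spread between these libraries, which may be technical.

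Library depth was not given in the sources used here. The ETS1 lists were far shorter than the others: 302 and 208 peaks in siNEG cells, 1633 and 2635 in siFLI1 cells, against 18344 to 19720 for H3K4me3, 60027 to 65501 for H3K27ac, and 32738 (siNEG) and 51663 (siFLI1) for ab4729. Peak names inside the siFLI1 ETS1 replicate 1 list carried the number 2. At summits in both siFLI1 ETS1 lists the tag heights, recovered from the deposited fold and p, differed by less than sampling noise would give (chi-square per degree of freedom 0.426 over 480 shared regions, where 1 is counting noise). All heights in these lists were whole within 0.05 tags. In at least 1 list of every other pair most were not whole, so the same value for those pairs is not on this scale. These 2 lists were therefore counted as 1 sample, and each ETS1 result is given per list. The shortest interval was 275 bp in siFLI1 ETS1 replicate 1 and 155 bp in replicate 2, and the reason was not given in the sources used here. Genes known in Ewing sarcoma (CD99, NKX2-2, NR0B1, CCND1, STEAP1, PRKCB and FLI1) had H3K4me3 in all 4 lists, 7 of 7, whereas the 4 blood, 2 endothelial and 2 liver markers had none, and of the 3 epithelial markers only EPCAM had it, in 1 list.

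The sequences that carry the ETS1 result are the 101 bases centred on the summit in siFLI1 ETS1 replicate 2, shown for 6 of the 7 genes with a peak in both siFLI1 lists (the one at RPL7 is not shown). All are on hg38, on the strand of the named gene, 5′ to 3′, with the ETS core GGAA, or TTCC where it lies on the other strand, in capitals. They are chr3:12841639-12841739 (minus strand, upstream of RPL32), chr12:112418868-112418968 (minus strand, upstream of RPL6), chr12:56041905-56042005 (plus strand, start of RPS26), chr9:124861979-124862079 (minus strand, upstream of RPL35), chr15:66504898-66504998 (minus strand, upstream of RPL4) and chr5:150449828-150449928 (minus strand, upstream of RPS14).
RPL32: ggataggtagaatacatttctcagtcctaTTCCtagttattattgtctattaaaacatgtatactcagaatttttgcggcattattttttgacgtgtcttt
RPL6: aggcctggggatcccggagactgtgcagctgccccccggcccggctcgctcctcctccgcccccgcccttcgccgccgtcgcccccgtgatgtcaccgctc
RPS26: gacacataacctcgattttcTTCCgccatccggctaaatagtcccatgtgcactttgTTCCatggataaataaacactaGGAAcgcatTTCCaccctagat
RPL35: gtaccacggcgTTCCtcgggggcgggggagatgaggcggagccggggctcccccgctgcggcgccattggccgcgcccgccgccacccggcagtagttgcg
RPL4: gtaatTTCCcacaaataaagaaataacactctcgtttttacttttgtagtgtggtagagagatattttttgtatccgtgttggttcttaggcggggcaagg
RPS14: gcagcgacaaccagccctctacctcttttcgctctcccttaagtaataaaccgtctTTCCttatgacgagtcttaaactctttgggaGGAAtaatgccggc
None of the 6 holds the longer letters CCGGAA. RPS26 has 4 copies of the core, RPS14 has 2, RPL32, RPL35 and RPL4 have 1 each, and RPL6 has none. The RPL32 window is 30.7% G and C and the RPL4 window 37.6%, while those of RPL35 and RPL6 are 78.2% and 77.2%.

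ETS1 was recorded at few ribosomal protein genes in control cells and at more after siFLI1. A peak overlapped the 1 kb to either side of a TSS at 3 of 77 genes in siNEG replicate 1 (1.59% of all protein-coding genes had one), 3 in siNEG replicate 2 (1.06%), 7 in siFLI1 replicate 1 (8.15%) and 15 in siFLI1 replicate 2 (12.1%). As shares of the 77, these were 3.90% (exact Clopper-Pearson 95% interval 0.811 to 10.97%), 3.90%, 9.09% (3.73 to 17.8%) and 19.5% (11.3 to 30.1%), with intervals that cover counting error over genes only. Among genes with H3K4me3 in both lists of the same arm, the shares were 2.505%, 1.65%, 12.6% and 18.6%. Against that background the ribosomal protein genes were slightly above in siNEG cells, below in siFLI1 replicate 1 and level in siFLI1 replicate 2, and all 4 of those shares lay inside the interval of the ribosomal protein genes. The mean was 3 ± 0 (SD, n = 2) in siNEG and 11 in siFLI1 (n = 1), a difference of 8 (exact two-sided permutation test over libraries, p = 0.33, the smallest that this design can give). A single siFLI1 sample has no spread of its own, so this difference could not be set against replicate error in that arm. With each list limited to its 208 strongest peaks, the count was 2 and 3 in siNEG and 2 and 3 in siFLI1, a difference of 0.

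**Figure D1:**
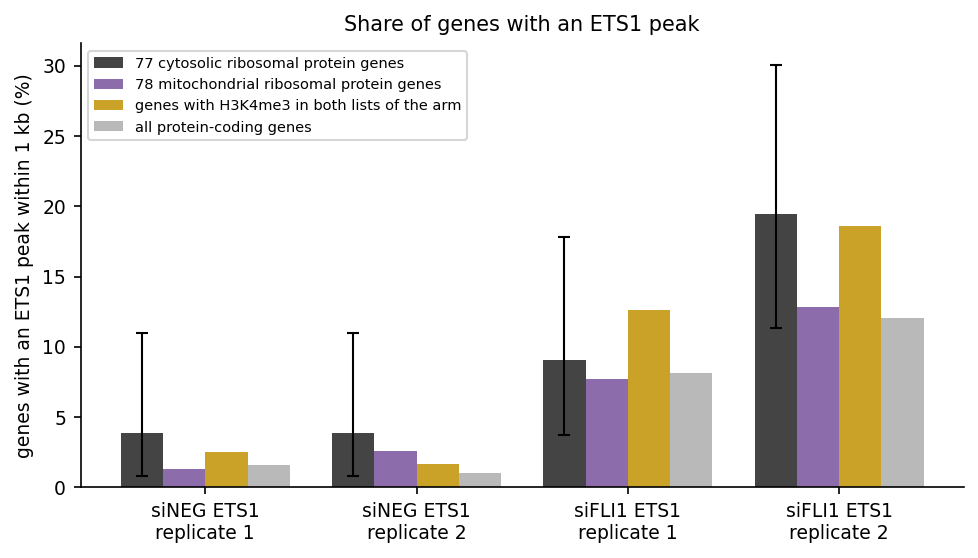
Bars give the percent of genes with an ETS1 peak within 1 kb of a TSS in each of the 4 ETS1 lists, for the 77 cytosolic and the 78 mitochondrial ribosomal protein genes, for genes with H3K4me3 in both lists of the arm, and for all protein-coding genes. Error bars are exact 95% binomial intervals for the 77 genes. Every group is higher in the siFLI1 lists, and the cytosolic genes reach 9.09% and 19.5% there.

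The presence pattern split the 77 genes into 4 classes. RPL32, RPL6 and RPS26 had a peak in all 4 lists (0.689% of all genes did). RPL35, RPL4, RPL7 and RPS14 had one in both siFLI1 lists and neither siNEG list, 4 of 77 or 5.19%, beside 5.89% of all genes. RPL11, RPL26, RPL29, RPL3, RPL31, RPS2, RPS20 and RPS21 had one in siFLI1 replicate 2 only, 8 of 77, beside 4.32% of all genes, and no gene in replicate 1 only (0.470%). The remaining 62 genes had none in any list, and none was in both siNEG lists and neither siFLI1 list (0.00999% of all genes). In total 15 had a peak in some list (12.6% of all genes) and 7 in both siFLI1 lists (7.68%). Among genes with H3K4me3 in all 4 lists the shares were 19.9% in some list, 12.2% in both siFLI1 lists, 9.33% in both siFLI1 lists and neither siNEG list, and 6.75% in siFLI1 replicate 2 only. Beside these, the ribosomal protein genes were level for a peak in some list (19.5%), and lower for both siFLI1 lists (9.09%). They were also lower for both siFLI1 lists and neither siNEG list (5.19%), and higher for siFLI1 replicate 2 only (10.4%). A peak in all 4 lists was more frequent at them (3.90%) than at genes with H3K4me3 in all 4 lists (1.10%). Each of these shares rests on few genes, and the differences were not tested. Both subunits were represented, with 10 large-subunit and 5 small-subunit genes in siFLI1 replicate 2, and the 3 stalk genes had no peak in any list.

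RPL32, a protein of the large subunit, had the strongest peak of the group in each list. The deposited fold, the authors' ratio of the peak over its local background, was 20.8 and 34.6 in siNEG and 22.1 and 36.4 in siFLI1. Ranked within its own list, this put the peak at the 96.4th and 98.1st percentile in siNEG and at the 99.4th and 99.8th in siFLI1, where 100 is the list's strongest peak. RPL32 was thus near the top of every list in either arm. Its summit lay 106 and 120 bp upstream of the nearest RPL32 TSS in siNEG and 95 and 107 bp upstream in siFLI1, in the sequence printed above. The nearest CCGGAA lay 63 to 88 bp from the summit, on the side of the gene.

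RPS26, a small-subunit protein at the channel where mRNA leaves the ribosome, had folds of 8.84 and 9.58 in siNEG and 8.26 and 12.2 in siFLI1. The percentiles were 71.9 and 73.1 in siNEG and 81.3 and 92.8 in siFLI1. Its summits fell at the start itself, from 2 bp upstream of a start to 90 bp inside exon 1, with a CCGGAA 43 to 160 bp away. The peak assigned to RPL6, a large-subunit protein, had folds of 6.33 and 9.62 in siNEG and 12.9 and 18.3 in siFLI1, with percentiles of 26.8 and 75 in siNEG and 97.6 and 98.4 in siFLI1. Those summits lay at -9358 to -9299 bp from the canonical RPL6 start, near an alternative RPL6 TSS, and were 2 to 16 bp from the TSS of PTPN11, which encodes the phosphatase SHP2. Every one of these summits was nearer to PTPN11 than to an RPL6 start. Ranks from lists of different length cannot be read as a change between arms.

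The 4 genes with a peak in both siFLI1 lists only had lower ranks. RPL35, a large-subunit protein at the exit of the peptide tunnel, stood highest, with folds of 7.89 and 11.004 and percentiles of 77.2 and 89.0, and its summits were 37 and 48 bp upstream of a start. The peak at RPL4, whose protein reaches into that tunnel, had folds of 5.43 and 9.19 and percentiles of 28.2 and 79.5. Its summits were at -122 and -93 bp from the RPL4 start and 18 and 11 bp from the TSS of ZWILCH, a kinetochore gene that starts on the other strand. The peak at RPS14, a platform protein of the small subunit whose loss is known from the 5q- syndrome, had folds of 5.29 and 6.42 and percentiles of 23.1 and 41.9, and its summits lay 53 and 139 bp upstream. RPL7, a large-subunit protein, had folds of 5.12 and 5.94 and percentiles of 19.5 and 31.7. The window of RPL35, RPL4 and RPL7 also holds the TSS of ARPC5L, ZWILCH and RDH10. Without the 24 genes that share a window, 3 genes stayed in both siFLI1 lists (RPL32, RPS14 and RPS26) and 1 was found there alone (RPS14).

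The 8 genes of siFLI1 replicate 2 alone, of which RPL11, RPS20, RPL29 and RPL31 were picked as examples after their values were seen, ranged from RPS20 at the 55.6th percentile (fold 7.05) down to RPL31 at 1.75 and RPL29 at 0.759 (folds 3.84 and 3.58). RPL11, which with RPL5 and 5S RNA restrains MDM2 when ribosome assembly fails, was at the 39.1st percentile with a fold of 6.12. RPL3, which lies by the peptidyl transferase centre, was at 29.1 with a fold of 5.71. At a −log10 q of at least 5 the replicate 2 list kept 11 of its 15 genes and lost RPL26, RPL29, RPL31 and RPS2. All 7 genes of siFLI1 replicate 1 and the 3 of each siNEG list passed that limit. A window of 2 kb added RPL23A in both siFLI1 lists.

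**Figure D2:**
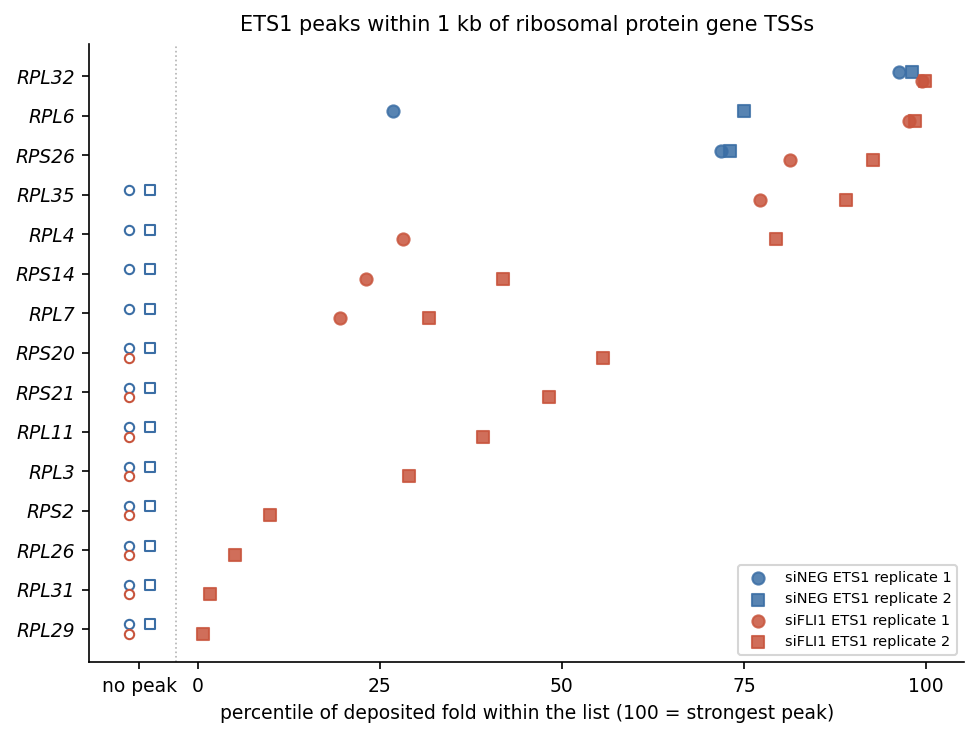
Each row is 1 of the 15 genes with an ETS1 peak in any list, and the horizontal axis is the percentile of the authors' fold within the list, with open symbols at the left where the list holds no peak. Circles are replicate 1 and squares replicate 2, blue for siNEG and red for siFLI1. RPL32 lies above the 96th percentile in every list, and 8 genes have a symbol in siFLI1 replicate 2 alone.

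Other genes of the translation machinery gave the following ETS1 counts, to be read beside the 8.15% and 12.1% of all protein-coding genes in siFLI1 replicates 1 and 2. Of 78 mitochondrial ribosomal protein genes, 1 and 2 had a peak in the siNEG lists and 6 and 10 in the siFLI1 lists, or 7.69% and 12.8%, near that background. Of 16 further TOP mRNAs of translation, none had a peak in siNEG, 5 had one in siFLI1 replicate 1 (EEF1B2, EEF1D, HNRNPA1, NAP1L1 and PABPC1) and 6 in replicate 2, which added EEF1A1, the elongation factor that brings tRNA to the ribosome. These shares, 31.25% and 37.5%, were above that background, but over few genes, and the difference was not tested. Of 20 ribosome assembly genes, UBTF, an activator of RNA polymerase I, had a peak in both siFLI1 lists, and NHP2 in replicate 2, near that background. None of 12 ribosomal protein paralogues and fusions (such as RPL22L1, RPL39L and FAU) had one in any list, a list too short to set apart from it.

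The letters CCGGAA were searched on either strand, in promoters and at summits, in windows of different length. Promoter sequences, 250 bases before to 50 after the start, came from RefSeq (GRCh38.p14) and matched 62 of the 77 genes. A gene with several RefSeq starts was counted as holding the letters if any of its windows did. CCGGAA was present in 35 of the 62 (56.5%), beside 26.95% of 15345 protein-coding genes, 35.6% of those with H3K4me3 in all 4 lists, and 43 of 69 mitochondrial ribosomal protein genes (62.3%). Among the 12 matched genes with an ETS1 peak in some list, 9 held it, and among the 50 without, 26 did. So most promoters with the letters had no listed peak. Within 50 bp of the ETS1 summit, CCGGAA was present at 0 of 3 and 0 of 3 members in the siNEG lists, at 2 of 7 in siFLI1 replicate 1 (RPS14 and RPS26) and at 2 of 15 in replicate 2 (RPS20 and RPS21). Over all peaks of those lists the shares were 11.6%, 8.65%, 10.0% and 10.7%. Within those windows the core GGAA alone was at 2, 2, 5 and 11 of these summits, in the same order of lists, and at 64.7% to 65.2% of all summits. In the longer promoter windows it was present in 62 of 62 matched genes, near the 96.4% of all protein-coding genes and 96.5% of those with H3K4me3 in all 4 lists. A match of letters is not a binding site, and these shares describe sequence only.

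A pyrimidine run at the start was frequent. A C followed by at least 4 pyrimidines was found at any of the gene's RefSeq starts in 46 of 62 genes (74.2%), beside 6.32% of all protein-coding genes, 7.59% of those with H3K4me3 in all 4 lists, and 6 of 69 mitochondrial ribosomal protein genes (8.70%). Some genes have starts both with and without the run. With the longest uninterrupted run over a gene's starts taken, the median of the matched genes was 7 pyrimidines, and the longest, in RPL39, was 19. The examples show 15 bases before and 15 from the start, with the pyrimidine run from the start in capitals, on RefSeq GRCh38.p14 and the strand of the gene. They were picked to show a long run (RPL39, chrX:119791616-119791645, minus strand, whose run passes the window's end) and runs at ETS1-marked genes (RPL35, chr9:124861943-124861972, and RPS14, chr5:150449725-150449754, both minus strand). Others have no run at the annotated start (RPS26, chr12:56041903-56041932, plus strand, and RPL32, chr3:12841568-12841597, minus strand). In RPS26 a pyrimidine stretch begins shortly after that start. The start shown for RPL32 is not its only RefSeq start, and its other starts have no run either. These windows do not show that the mRNAs of RPS26 and RPL32 lack a TOP tract.
RPL39: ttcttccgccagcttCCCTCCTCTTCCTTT
RPL35: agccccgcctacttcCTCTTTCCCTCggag
RPS14: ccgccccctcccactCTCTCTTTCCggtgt
RPS26: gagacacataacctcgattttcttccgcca
RPL32: tccctgctaggacccaggggttacgaccca
Of the 12 matched genes with an ETS1 peak, 7 had the run, and of the 50 without, 39 did. TATAAA was present in 5 of 62 (8.06%, beside 12.4% of all and 7.96% of those with H3K4me3 in all 4 lists), GGGCGG, the letters bound by SP factors, in 36 (58.1%, beside 65.1% and 78.6%), and AAGATGGC, bound by YY1, in 6 (9.68%, beside 4.74% and 6.61%, and 21 of 69 mitochondrial ribosomal protein genes), each searched on both strands. On their own strand, 28 of the 77 genes (36.4%) enclosed 60 annotated small nucleolar RNA genes, with up to 5 in a gene, as in RPL4, beside 1.28% of all protein-coding genes.

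Both histone marks were present at every ribosomal protein gene in every list. H3K4me3 overlapped the window of 77 of 77 genes in both siNEG lists (63.7% and 64.0% of all genes) and both siFLI1 lists (64.8% and 65.0%). H3K27ac did so at 77 of 77 in siNEG (53.0% and 49.4%) and siFLI1 (54.3% and 53.5%), and with ab4729 at 77 of 77 in each arm (44.6% in siNEG and 49.7% in siFLI1). The difference between arms was 0 for both marks, with means of 77 ± 0 (SD, n = 2) in either arm, so no gene was gained or lost (gained, 0.869% of all genes for H3K4me3 and 1.91% for H3K27ac; lost, 0.200% and 0.635%). The exact permutation test gives p = 1 where all values are equal. Of 78 mitochondrial ribosomal protein genes, 77 had H3K4me3 in each list and 75 or 76 had H3K27ac in the replicated lists. Of the 12 paralogues and fusions, 8 carried both marks in all 8 replicated lists. RPL3L and RPL10L, known from muscle and testis, were among the 4 that carried neither.

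The regions at these genes ranked high. A window joins all TSSs of a gene, a median of 8 at these genes and 5 over all protein-coding genes. The strongest region was therefore picked from more windows here, and neither ranks nor counts were adjusted for this. By the strongest region in each window, the median H3K4me3 percentile of the 77 genes was 97.0 and 97.4 in siNEG and 95.5 and 93.3 in siFLI1, where all protein-coding genes with a peak had medians of 70.4 to 73.1 and the mitochondrial ribosomal protein genes 80.9 to 84.5. All 77 were above the median of each replicated list. For H3K27ac the median was 93.6 and 92.1 in siNEG and 94.4 and 93.2 in siFLI1, beside 84.3 to 87.0 for all genes, and with ab4729 it was 91.6 in siNEG and 94.1 in siFLI1, beside 78.3 and 83.9. The 16 further TOP mRNAs of translation also ranked high. Their H3K4me3 medians were 93.2 and 92.3 in siNEG and 93.8 and 90.6 in siFLI1. Their H3K27ac medians, over the 15 or 16 with a peak, were 95.2 and 92.4, then 97.2 and 93.3. High ranks are therefore not particular to ribosomal protein genes. As fold, the median member had 81.0 and 88.6 in siNEG and 79.4 and 73.2 in siFLI1 for H3K4me3 (44.7 to 46.9 for all genes with a peak), and 15.4 and 10.6 in siNEG and 15.1 and 14.05 in siFLI1 for H3K27ac (7.53 to 9.99).

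**Figure D3:**
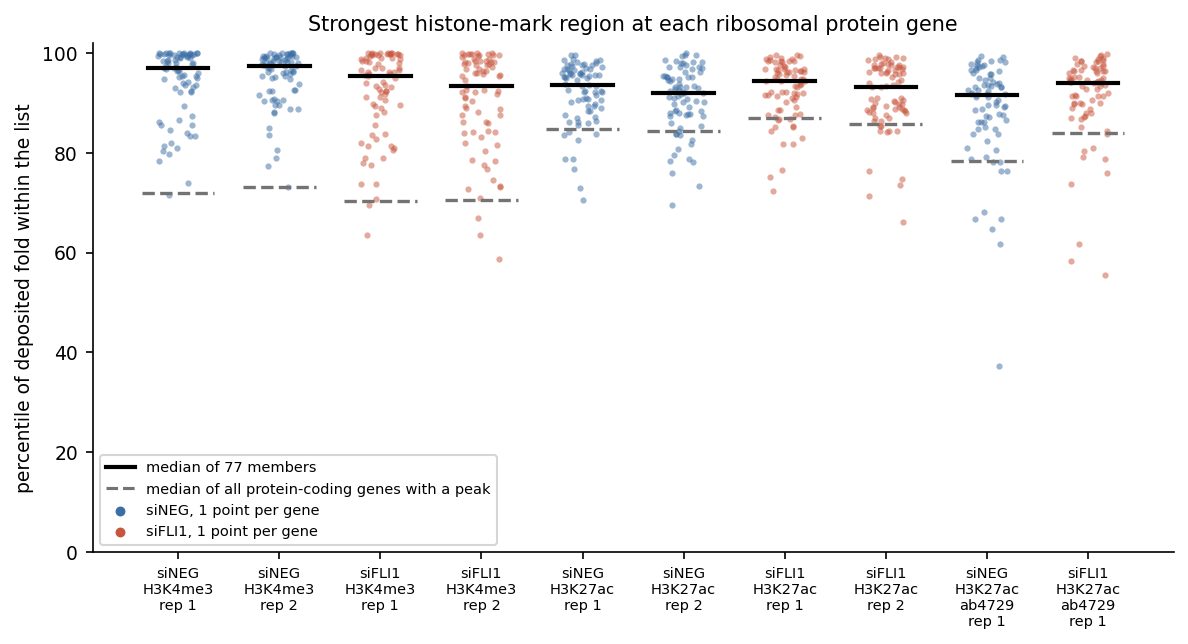
Each point is 1 of the 77 genes, placed by the percentile of its strongest region's fold within each of the 10 histone lists (jittered sideways). Black bars are medians of the 77 genes and dashed grey bars medians of all protein-coding genes with a peak. The black bar lies above the grey one in each of the 10 lists, at 91.6 or higher.

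The order among the genes was poorly shared between replicates at this upper end. Over the 77 genes, the percentiles of replicates 1 and 2 had a Spearman correlation of 0.18 in siNEG and 0.21 in siFLI1 for H3K4me3, and of 0.57 and 0.50 for H3K27ac. Over all genes with a peak in both lists it was 0.80 to 0.82. These are correlations across genes, given as a description, and the 77 genes span a narrow range of ranks. Ranks of single genes should be read with that spread. For H3K4me3 the highest means over 4 lists included those of RPL35 (99.5 and 100 in siNEG, 99.5 and 99.9 in siFLI1) and RPL15 (99.6 and 99.96, then 98.8 and 99.7). The lowest were RPS9 (78.4 and 96.9, then 63.5 and 73.1), RPL13 (84.5 and 92.3, then 69.6 and 74.5) and RPS21 (81.0 and 90.6, then 81.3 and 72.8). These genes were picked as the ends of the order over the same lists, so the gap between them is no sign of a stable order.

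For H3K27ac the highest were RPL21 (99.7 and 99.5 in siNEG, 99.5 and 99.2 in siFLI1), RPS19, a gene mutated in Diamond-Blackfan anaemia (98.7 and 99.9, then 98.4 and 99.6), and RPL3 (98.9 and 99.6, then 96.8 and 98.7). The lowest were RPL28 (87.6 and 75.9, then 85.1 and 76.4), the stalk gene RPLP1 (70.6 and 78.3, then 87.2 and 90.6) and RPS21 (72.9 and 82.5, then 87.7 and 85.4). RPS21 was among the lowest 3 for both marks.

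H3K4me3 summits lay just inside the genes, as at other genes, and were more closely grouped. The median summit was 273 and 277 bp downstream of the canonical TSS in siNEG and 266 and 260 bp in siFLI1, beside 247 and 258 bp, then 242 and 243 bp, for all genes with a peak. It was downstream at 77, 77, 76 and 76 of 77 genes, beside 80.9% to 81.1% of all genes with a peak. Between 100 and 400 bp downstream lay 69 and 66 of the siNEG summits and 70 and 69 of the siFLI1 summits, or 85.7% to 90.9%, beside 55.5% to 57.5% of all genes with a peak. H3K27ac summits were more spread, with medians of 195 and 197 bp in siNEG and 169 and 167 bp in siFLI1, and 50, 49, 47 and 47 of 77 were downstream, near the 158 to 167 bp and the 60.5% to 62.5% downstream of all genes with a peak. They too were more closely grouped than at other genes. Between 100 and 400 bp downstream lay 61.0% and 59.7% in siNEG, then 54.5% and 53.2%, beside 36.0% to 39.5% of all genes with a peak. H3K27ac regions covered the TSS itself at 71 and 55 genes in siNEG and 70 and 61 in siFLI1, or 92.2% and 71.4%, then 90.9% and 79.2%, beside 61.8% and 52.9%, then 65.1% and 62.8%, of all genes with a peak. In the ab4729 lists they covered it at 15 genes in each arm (19.5%), beside 21.6% in siNEG and 26.02% in siFLI1 of all genes with a peak, so the excess was not seen with that antibody. H3K4me3 regions covered the TSS at all 77 in each list, beside 91.7% to 92.1% of all genes with a peak.

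H3K4me3 regions at these genes were wide, and narrower in the siFLI1 lists. This result and the next were chosen after seeing the data. The median width of the strongest region was 5139 and 5173 bp in siNEG and 4277 and 4452 bp in siFLI1, where all genes with a peak had 3408 and 3497 bp, then 3104 and 3195 bp. The arms did not overlap in either group. Over all H3K4me3 regions of a list the order was the other way, with medians of 1843 and 1716 bp in siNEG and 1978 and 2028 bp in siFLI1. The mean of the medians was 5156 ± 24.0 bp in siNEG and 4364.5 ± 124 bp (SD, n = 2 each) in siFLI1, a difference of -791.5 bp or -15.4% (exact two-sided permutation test, p = 0.33, the smallest 2 libraries against 2 can give). At 55 of 77 genes both siFLI1 widths were below both siNEG widths (38.0% of all genes with a peak in all 4 lists), at 2 genes both were above (15.7%), and at 20 the arms overlapped. The 2 wider ones were RPL7A (7599 and 7510 bp in siNEG, 13939 and 12974 bp in siFLI1) and RPL7 (7991 and 7867 bp, then 8715 and 8089 bp). The widths that differed most in the other direction were those of RPL23A (14878 and 14844 bp, then 4581 and 3804 bp), RPS2 (15531 and 15637 bp, then 8802 and 8862 bp) and RPL19 (8371 and 8425 bp, then 3685 and 3511 bp). These 5 genes were named after their values were seen. Regions of that width can span neighbouring genes, and a split of 1 region into more changes the width of its strongest piece.

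Measured from the start, regions reached less far into the gene in the siFLI1 lists. At 1 kb upstream they covered 44 and 46 genes in siNEG and 36 and 36 in siFLI1 (exact two-sided permutation test, n = 2 each, p = 0.33), beside 41.6% and 43.2%, then 40.8% and 42.3%, of genes with H3K4me3 in all 4 lists. At 3 kb downstream, H3K4me3 covered 71 and 70 of 77 genes in siNEG and 53 and 57 in siFLI1, or 91.6 ± 0.918% and 71.4 ± 3.67% (SD, n = 2 each, exact two-sided permutation test, p = 0.33). Genes with H3K4me3 in all 4 lists were covered there in 35.4% and 37.5% of cases in siNEG and 24.7% and 26.5% in siFLI1. At 1 kb downstream all 77 were covered in every list, beside 84.1% to 85.9% of genes with H3K4me3 in all 4 lists. Their canonical transcripts are short (median 4450 bp, where all protein-coding genes have 22913 bp). The whole canonical transcript lay inside a single H3K4me3 region at 30 and 33 genes in siNEG and 17 and 21 in siFLI1, or 39.0% and 42.9%, then 22.1% and 27.3%, beside 2.09% to 2.56% of all genes.

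H3K27ac widths differed in the other direction, by less than the replicate spread at the median. The median width was 2189 and 1722 bp in siNEG and 2365 and 2101 bp in siFLI1, so the arms overlapped, with means of 1955.5 ± 330.2 bp and 2233 ± 187 bp (SD, n = 2 each, exact two-sided permutation test, p = 0.67). For all genes with a peak it was 1203.5 and 1035 bp, then 1386 and 1317 bp. Both siFLI1 widths were above both siNEG widths at 24 of 77 genes (37.2% of all genes with a peak in all 4 lists), below at 6 (10.8%) and overlapping at 47, which is near the background. At 1.5 kb downstream, H3K27ac covered 42 and 35 of 77 genes in siNEG and 52 and 56 in siFLI1, or 54.5% and 45.5%, then 67.5% and 72.7% (n = 2 each, exact two-sided permutation test, p = 0.33). For genes with H3K4me3 in all 4 lists the shares there were 19.3% and 18.2%, then 24.6% and 23.9%. The stalk gene RPLP0 had the largest difference, with 4376 and 1375 bp in siNEG and 7760 and 10321 bp in siFLI1, and it was named after its values were seen.

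**Figure D4:**
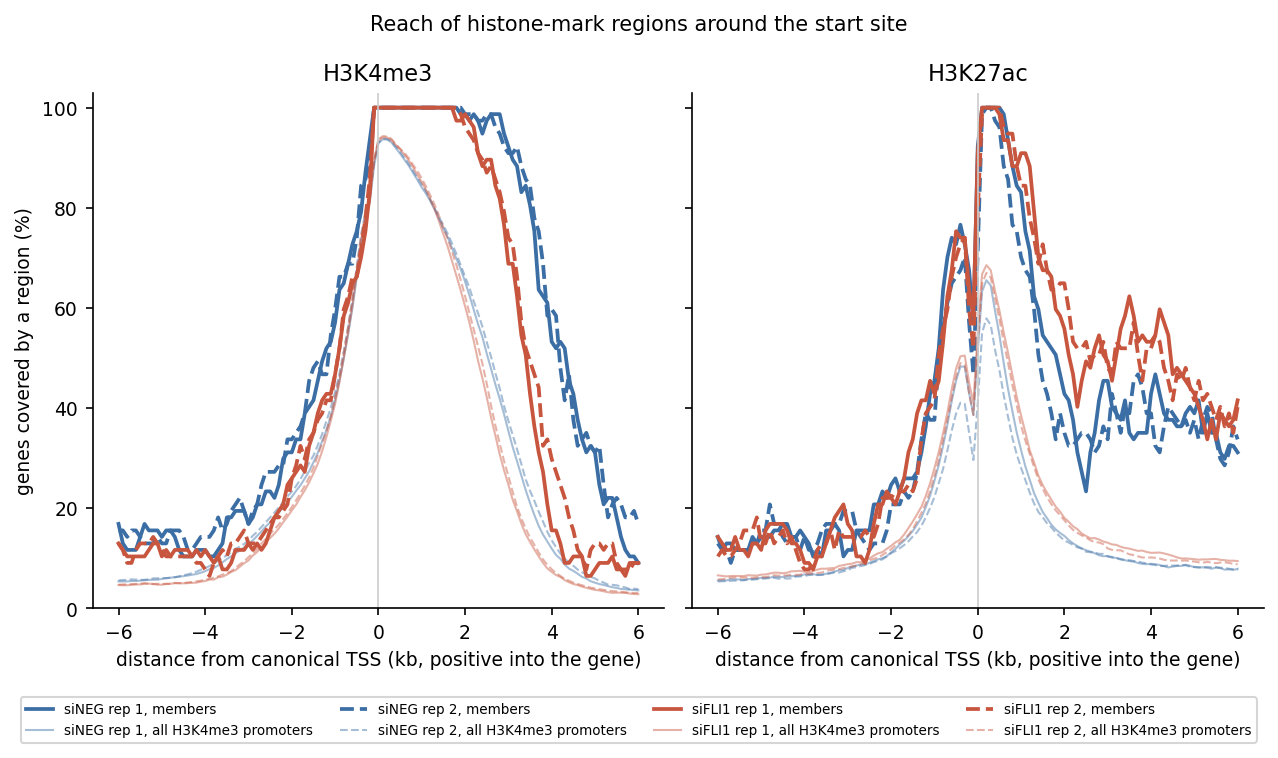
The percent of genes covered by a region is plotted against the distance from the canonical TSS in kb, positive into the gene, for H3K4me3 (left) and H3K27ac (right). Thick lines are the 77 genes and thin lines all genes with H3K4me3 in all 4 lists, with 1 line per list. The siFLI1 lines fall earlier for H3K4me3, at 71.4% against 91.6% at 3 kb, and stay higher for H3K27ac, at 67.5% and 72.7% against 54.5% and 45.5% at 1.5 kb.

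**Figure D5:**
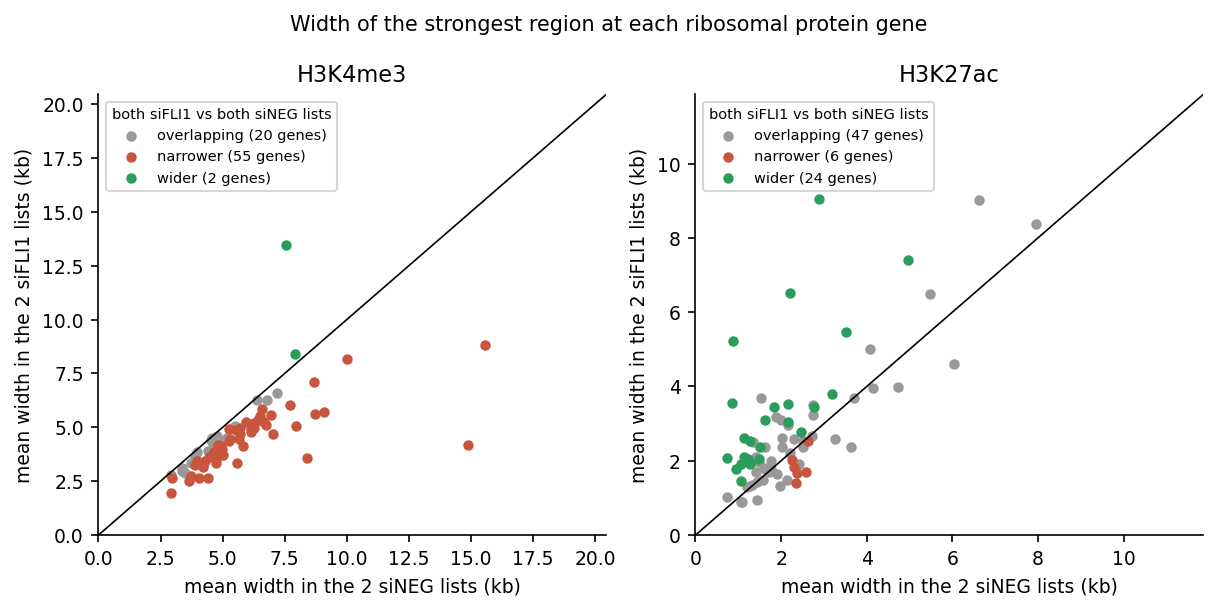
Each point is 1 of the 77 genes, with the mean width of its strongest region in kb in the 2 siNEG lists on the horizontal and in the 2 siFLI1 lists on the vertical axis, for H3K4me3 (left) and H3K27ac (right), and a line of equal width. For H3K4me3, 55 genes have both siFLI1 widths below both siNEG widths, and for H3K27ac 24 have both above.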

How the data were processed

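ChIP-seq peak lists of TC-32 cells were used as the authors deposited them, called per library. The submitters' processing notes name cutadapt 4.4, BWA 0.7.17, Picard 2.17.11, MACS2 2.1.1 and the builds GRCh38, hg38 and dm6, with no role for each. Whether dm6 marks a spike-in is not given in the sources used here, and no scaling was applied. All peaks lie within hg38 chromosome ends, and coordinates are hg38, counted from 1. The deposited fold column, the authors' ratio over local background, was ranked within each list. The deposited −log10 p-value and q-value were used for heights and a stricter limit, and the authors' score column was not used. Depth and control libraries were not given in the sources used here.

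A gene on chromosomes 1 to 22, X or Y was given the peaks that overlapped by at least 1 bp the 1 kb around any of its GENCODE 44 TSSs. The strongest gave the value. Counts per list were compared by exact permutation tests over libraries, after tests on simulated data (Python 3.11.15, pandas, scipy). Genes named were those with ETS1 in a siNEG list or in both siFLI1 lists, and the 3 highest and 3 lowest per histone mark, and others are said to be named afterwards. Some items that this rule names are not reported here. Members and lists were chosen with earlier results of these data known. Alternatives covered the window, TSS, overlap, q limit, equal list length, shared promoters, each left-out list and the replicate block.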

Additional observations from a re-analysis of the deposited data

How the results depend on the processing

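Of 93 recomputed values, 85 were scored as the same as the main value. For differences between arms this meant the same sign, or 0 where the main value was 0, whatever the size. For counts of genes with ETS1 in both siFLI1 lists, with or without the siNEG condition, it meant within 1.5 times. When every ETS1 list was limited to its 208 strongest peaks, the siFLI1 excess of genes was 0, with 0 genes in both siFLI1 lists and neither siNEG list and 2 in both siFLI1 lists, and by construction this setting uses fewer peaks. Without genes whose window holds another protein-coding TSS these counts were 1 and 3, and the siFLI1 excess was 4.5 genes (mean 2 in siNEG and 6.5 in siFLI1). With the canonical TSS only, the excess was 8 (mean 2 in siNEG and 10 in siFLI1), and RPL6 had no peak. With the summit required inside the window the H3K27ac difference was -1 gene, with 75.5 in siFLI1 and 76.5 in siNEG. Leaving out each list in turn gave an ETS1 difference of 4 (without siFLI1 replicate 2) to 12 (without siFLI1 replicate 1), 4 to 12 genes in siFLI1 and not siNEG, and 7 to 15 in siFLI1. It gave -879 to -704 bp for the H3K4me3 width and 44 (without siNEG replicate 2) to 511 bp (without siNEG replicate 1) for H3K27ac, and 0 for both histone counts. The labels do not say that numbers pair the libraries, and same-numbered libraries did not deviate together (correlation over genes 0.011 for H3K4me3 and 0.018 for H3K27ac percentiles). With the replicate block the histone counts again differed by 0, and the widths by -791.5 bp and 277.5 bp (exact sign-flip test, p = 0.5, the smallest 2 pairs can give). No block was possible for ETS1 because the siFLI1 lists count as 1 sample. Widths, their alternatives, the nearest-TSS rule and the widest region were added after seeing the data. Depth is unknown, so absence from a list is no measure of absent binding.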
